A study of Gallus gallus with 16 samples.

Results

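MACIR and LONRF1 are 2 of the 12532 genes and unnamed probes tested in chicken pineal glands, each read by 1 cDNA probe (C0004102_N19 for MACIR, gene ID 768501, and C0004128_M19 for LONRF1, gene ID 422742). They were taken by the symbol in the probe annotation, and they were singled out because earlier results of these arrays showed light effects of opposite sign at the end and at the start of the night. Light effects, dark levels and the contrast of times are therefore given below as descriptions with their errors, and no test is attached to either gene. Glands came from male Rhode Island Red chicks aged 1 week, and each of 16 arrays carried RNA pooled from 5 to 6 glands. In paradigm 1, late-night light was given over the last 2 h of the night (ZT22 to ZT24) to the birds of 4 pools, against 4 dark control pools, all collected at ZT0, the time of lights-on. In paradigm 2, the day was prolonged by 2 h, ZT12 to ZT14, for 2 early-night light pools, against 2 dark pools, all collected at ZT14. In paradigm 3, 2 pools came from birds kept in a long day, which one label gives as 17 h light and 7 h dark and the design text as 15 h light and 9 h dark, against 2 dark pools also collected at ZT14. All controls, and the birds of the 2 h light groups before their light, lived in 12 h light and 12 h dark. Long-day birds thus differed from their controls in daily photoperiod. Its effect and that of light on the day of collection cannot be told apart. "Light effect" in paradigm 3 means the whole of this difference. Every ZT0 pool belongs to paradigm 1 and every ZT14 pool to paradigm 2 or 3. Time of night and paradigm therefore cannot be told apart in any comparison of ZT0 with ZT14. Each value is the log ratio of a pineal pool and a common reference made of all 16 pools, taken as log2. The sources used here do not say which channel is the numerator. "Higher" and "lower" describe the deposited ratio, and all signs would be inverted together if the reference were the numerator.

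The chicken pineal gland holds its own photoreceptor proteins and circadian clock, and light at night both suppresses melatonin release and shifts that clock. Light late in the night advances the clock and light early in the night delays it. MACIR, known in human as C5orf30, encodes a small protein that binds the UNC119 proteins, carriers that deliver lipid-modified proteins to cilia, and it restrains inflammatory activity of human macrophages and synovial fibroblasts. LONRF1 encodes a protein with RING fingers, the fold of many ubiquitin ligases, and a LON substrate-binding domain, and belongs to the LONRF family.

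The 16 arrays differed in spread. The SD over probes was 0.248 to 0.546 in paradigm 1, 0.391 to 0.510 in paradigm 2 and 0.820 to 1.08 in paradigm 3, while array medians lay between -0.0439 and 0.0518. The lowest correlation between a pair of arrays was -0.290. Of 39 listed genes that define the pineal gland and photoreceptors, 9 were tested, among them TPH1, NEUROD1, OTX2 and ISL1. Since the reference came from the same tissue, these ratios show no level of a marker and do not test the tissue label. A pool gives 1 value for all its cells, so that a change in the number of cells of a type and a change in RNA per cell cannot be told apart.

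Both genes had higher ratios with light at the end of the night and lower ratios with light at its start. After late-night light MACIR had log ratios of 0.65, 0.64, 0.57 and 0.90, against 0.37, 0.11, 0.41 and 0.15 in the dark at ZT0. All 4 light pools were above all 4 dark pools, with a gap of 0.16 between the nearest pools. The fitted difference was 0.43 ± 0.17 (SE of the limma fit over 16 arrays, 4 pools each), a fold of 1.34.

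LONRF1 had a difference of the same sign and of larger size after late-night light. Its log ratios were 0.50, 0.41, 0.60 and 0.67 in light pools, against -0.33, -0.34, -0.13 and -0.68 in dark pools. The lowest light pool exceeded the highest dark pool by 0.54. The difference was 0.91 ± 0.19, a fold of 1.88, and ranked 95 by size among 12532 genes, while that of MACIR ranked 1090. Both genes had groups that did not overlap, as did 4.59% of all genes tested. Light pool 4 and dark pools 3 and 4 lie on arrays of a later number series. Within that series the difference was 0.62 for MACIR and 1.07 for LONRF1, and within the first series it was 0.38 and 0.84. With the series as a block it was 0.46 for MACIR and 0.92 for LONRF1.

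After early-night light MACIR had log ratios of 0.30 and 0.15, against 1.68 and 1.83 in the dark at ZT14. The light pools were lower by 1.38 at their nearest approach. The difference was -1.53 ± 0.24 (2 pools each), which is 2.89-fold lower and ranked 54 by size among all genes.

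LONRF1 showed the same sign after early-night light. It had -0.65 and -0.60 in the light pools, against 0.75 and 0.72 in the dark pools. The groups were 1.31 apart, and replicate pools lay close together. The difference was -1.36 ± 0.27, which is 2.56-fold lower and ranked 78. Groups of 2 pools did not overlap for 35.2% of all genes, so separation by itself is near the background for such small groups.

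In the long day, which was also sampled at ZT14, both genes were again on the low side. MACIR had 0.18 and 0.30 in long-day pools, against 1.92 and 1.13 in their dark controls, a difference of -1.29 ± 0.24. LONRF1 had -0.77 and -0.68 in long-day pools, against 0.51 and -0.52 in dark pools, a difference of -0.72 ± 0.27. By size these ranked 611 for MACIR and 2437 for LONRF1 of 12532. Neither gene's groups overlapped, as for 35.8% of all genes.

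The long-day difference of LONRF1 rested on the dark pools, which lay far apart. It was -0.21 without dark pool 3 and -1.23 without dark pool 4. Dark pool 3 was also the higher one for MACIR, whose difference was -0.89 without it and -1.68 without dark pool 4. Scaling each array to a common spread gave -0.61 for MACIR and -0.42 for LONRF1, the arrays of paradigm 3 being the widest. Quantile normalization gave -0.62 and -0.41. The sign was negative under each of these alternatives, while the size varied.

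**Figure D1:**
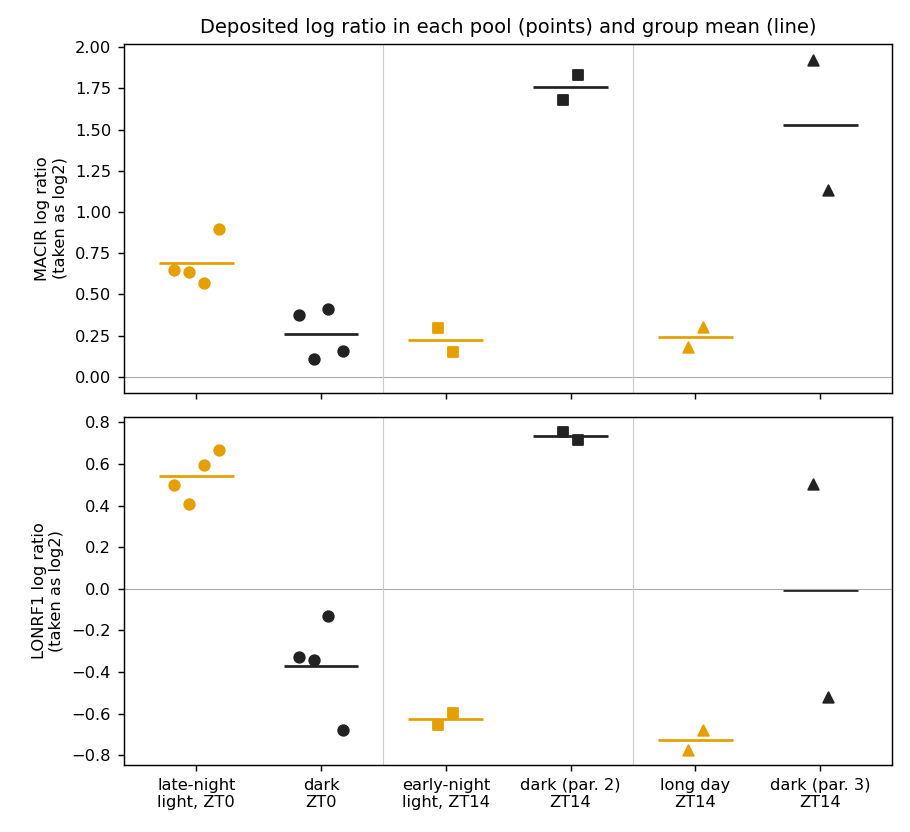
Deposited log ratio (taken as log2, y axis) of MACIR (top) and LONRF1 (bottom) in each of 16 pools; points are pools, lines are group means, orange marks light and black marks dark. For both genes light pools sit above dark pools at ZT0 and below them at ZT14, and the paradigm 3 dark pools lie far apart, at 1.92 and 1.13 for MACIR.

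The light effect at the end of the night exceeded that at its start by 1.96 ± 0.29 for MACIR and by 2.27 ± 0.33 for LONRF1. By the size of this contrast LONRF1 ranked 22 and MACIR 44 of 12532 genes. For MACIR most of it came from early-night light, whose effect of -1.53 was larger in size than the 0.43 of late-night light. For LONRF1 the 2 parts were closer, at -1.36 and 0.91. Quantile normalization put the LONRF1 contrast at 3.21, and the lowest value of any alternative was 1.90, with all 4 ZT14 dark pools as controls. For MACIR the alternatives ran from 1.84 to 2.22.

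**Figure D2:**
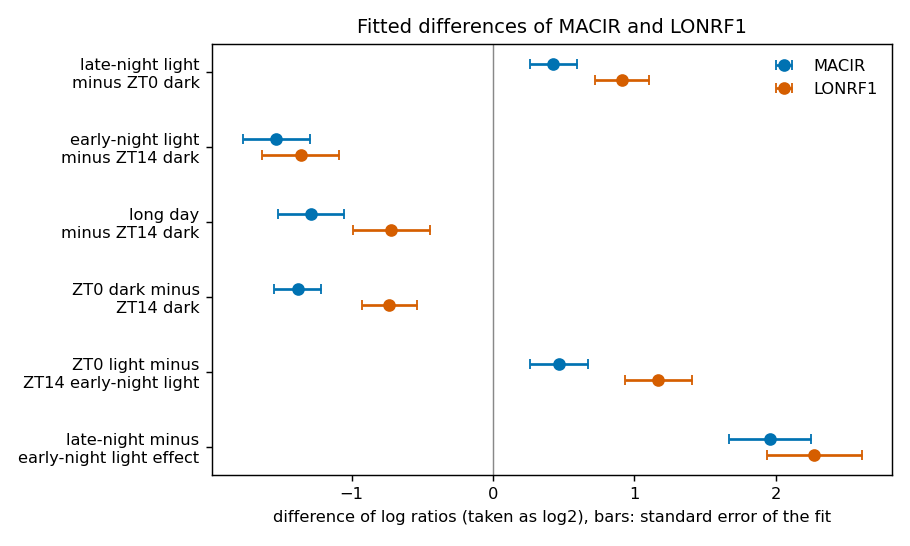
Fitted differences of log ratios (x axis, log2; bars are standard errors of the fit over 16 arrays) for MACIR in blue and LONRF1 in orange in 6 comparisons. Both genes are positive for late-night light, negative for both ZT14 light comparisons and negative for ZT0 minus ZT14 in the dark.

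In darkness MACIR was lower in the ZT0 pools, all of paradigm 1, than in the ZT14 pools of paradigms 2 and 3. The 4 ZT0 dark pools, at 0.11 to 0.41, were all below the 4 ZT14 dark pools, at 1.13 to 1.92, and 12.9% of all genes had such groups without overlap. The difference of ZT0 minus ZT14 was -1.38 ± 0.17, a 2.60-fold lower ratio at ZT0, and ranked 586 by size. It was -1.49 against the paradigm 2 dark pools alone, -1.27 against those of paradigm 3 alone and -0.81 after quantile normalization.

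LONRF1 was less clearly separated by time of night in the dark. Its ZT0 dark pools, at -0.68 to -0.13, were below 3 of the 4 ZT14 dark pools, and paradigm 3 dark pool 4, at -0.52, lay among them. The difference was -0.73 ± 0.19 and ranked 2704, and it was -1.10 against paradigm 2 dark pools alone and -0.36 against those of paradigm 3 alone. The paradigm 3 dark pools differed from those of paradigm 2 by -0.74 ± 0.27 for LONRF1 and by -0.23 ± 0.24 for MACIR, although both groups were dark controls at ZT14. Without paradigm 3 dark pool 3 the difference of ZT0 minus ZT14 for LONRF1 was -0.48.

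Ordered by group mean, MACIR was highest in the ZT14 dark pools of paradigm 2 at 1.76 ± 0.11 (SD, n = 2) and of paradigm 3 at 1.53 ± 0.56 (SD, n = 2). Late-night light followed at 0.69 ± 0.14 (SD, n = 4). At the low end were ZT0 dark at 0.26 ± 0.15 (SD, n = 4), the long day at 0.24 ± 0.08 and early-night light at 0.22 ± 0.10 (SD, n = 2 each). The first 2 groups overlapped, and so did the last 3. All 16 MACIR ratios were above 0 although the reference was made from the same 16 pools, so only differences between pools are read here. ZT14 light pools, at 0.15 to 0.30, lay within the range of ZT0 dark pools, while ZT0 light pools, at 0.57 to 0.90, stayed below every ZT14 dark pool.

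LONRF1 had a different order in the upper groups. Its mean was 0.73 ± 0.03 in paradigm 2 dark pools (SD, n = 2) and 0.54 ± 0.11 after late-night light (SD, n = 4). It was -0.01 ± 0.72 in paradigm 3 dark pools (SD, n = 2) and -0.37 ± 0.23 in ZT0 dark pools (SD, n = 4). Early-night light, at -0.62 ± 0.04, and the long day, at -0.73 ± 0.07, were lowest (SD, n = 2 each). Paradigm 3 dark pools overlapped with both late-night light and ZT0 dark pools, and the early-night light pools, at -0.65 and -0.60, lay within the range of ZT0 dark pools.

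Among the light pools themselves, ZT0 minus ZT14 early-night light was 1.17 ± 0.24 for LONRF1 and 0.46 ± 0.20 for MACIR. In light, both genes thus had higher means at ZT0. In the dark both had lower means at ZT0, with overlapping pools for LONRF1. Paradigm differs along with time in these comparisons. These contrasts share pools with the contrast of light effects and are not separate evidence.

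Across the 16 pools the log ratios of MACIR and LONRF1 had a Pearson correlation of 0.71 and a Spearman correlation of 0.76. They are descriptions without a p, because the pair was chosen for a shared pattern and pools cluster by group. Without the 2 pools farthest from the median of MACIR, the Pearson correlation was 0.66 and that by ranks 0.71. Among the 8 pools at ZT0 Pearson's r was 0.91, and among the 8 at ZT14 it was 0.93, where light and dark pools form separate groups. Among 6641 candidate genes with a symbol and 16 values, LONRF1 ranked 13 by its correlation with MACIR, and MACIR ranked 10 by its correlation with LONRF1. Deviations of pools from their group means had a Pearson correlation of 0.85 and a Spearman correlation of 0.56. Without the paradigm 3 dark pools these were 0.53 and 0.35.

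**Figure D3:**
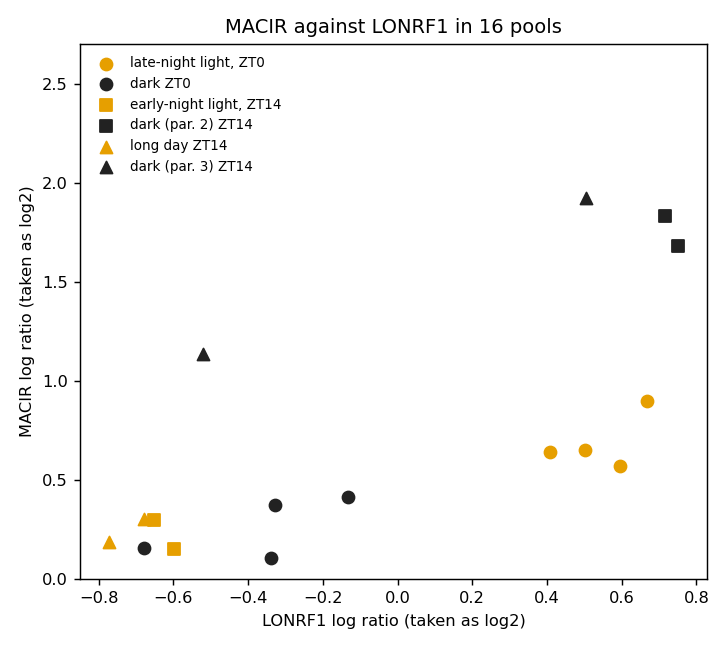
LONRF1 (x axis) against MACIR (y axis), deposited log ratios taken as log2, 1 point for each of 16 pools; colour marks light or dark, and circles, squares and triangles mark paradigms 1, 2 and 3. ZT14 light pools and ZT0 dark pools share the lower left, and ZT0 light pools lie to the right but below the ZT14 dark pools in MACIR.

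Genes sharing the light pattern by which both genes had been chosen were counted as a description. Late-night light pools did not overlap with their dark pools in one direction, and both ZT14 light groups did not overlap with theirs in the other, for 36 genes, 0.287% of those tested, of which 18 had a symbol. In 26 of the 36, or 0.207% of all genes, light gave higher ratios at ZT0 and lower ones at ZT14, as for MACIR and LONRF1. The other 10 were the reverse. A group of 17 also separated dark ZT0 from dark ZT14 in the sense opposite to their late-night light effect, MACIR among them and LONRF1 not. Over all genes, 12.9% separated the dark times in either direction. The same dark pools enter the light comparisons and that of dark times, so the 17 are not separate evidence.

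Light effects over 0.5 in size in all 3 paradigms were left for 5 of the 36, picked here after their values were seen. Beside LONRF1 these were BDNF, a neurotrophin that neuronal activity induces, NDUFB2, a subunit of respiratory complex I, and the unnamed probes C0004119_I2 and DT40subNB_9B10. BDNF had -0.91 after late-night light and 1.15 after early-night light, and NDUFB2 had -0.81 and 1.17, both reverse to LONRF1. DT40subNB_9B10 had 0.83 and -1.30, as LONRF1 did, and C0004119_I2 had -1.41 and 1.05. MACIR was not among the 5, because its late-night effect was 0.43.

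**Figure D4:**
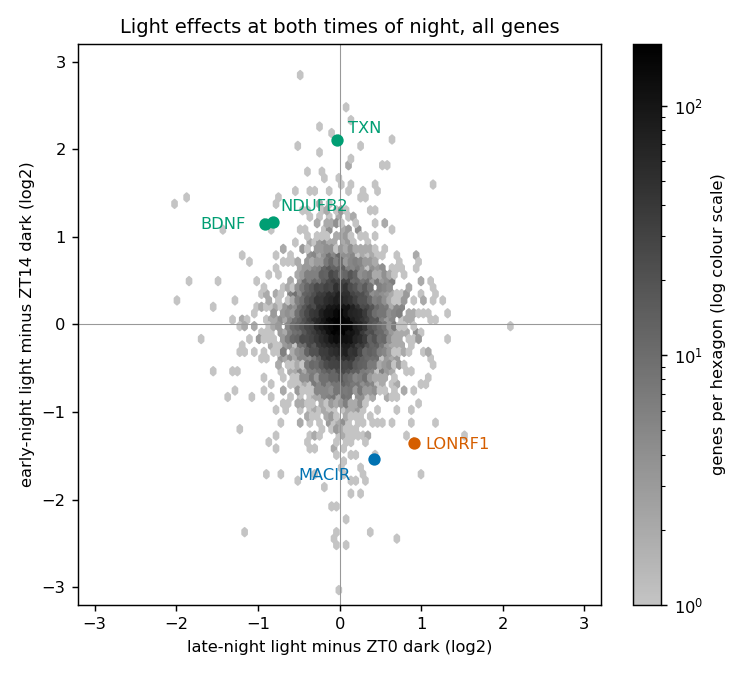
Light effect at the end of the night (x axis) against that at its start (y axis), log2 differences of 12532 genes as hexagons shaded by number, with MACIR, LONRF1, TXN, BDNF and NDUFB2 marked. MACIR (0.43 and -1.53) and LONRF1 (0.91 and -1.36) lie in the lower right part, opposite BDNF (-0.91 and 1.15).

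Across all genes limma called few differences in light effect between the 2 times (Benjamini-Hochberg adjusted p under 0.05): 5 genes, or 0.0399%, a count from which nothing is read for MACIR and LONRF1, since they were chosen by this contrast. At an unadjusted p under 0.05 there were 516. Of 19 tested light- and activity-induced genes, 2 were called in this contrast. Earlier results of these arrays had already shown both to differ in it, and the list was written with those results known. Their count and p-values are therefore not separate evidence. BDNF was lower at -2.06 ± 0.26 (adjusted p = 0.0225) and thioredoxin (TXN), which reduces disulfide bonds, was lower at -2.13 ± 0.31 (adjusted p = 0.0286). TXN had a different shape from MACIR and LONRF1, since its late-night effect was -0.03 ± 0.18 and its early-night effect 2.11 ± 0.25. Both calls were lost when the prior was fitted robustly with a trend. They were also lost without late-night light pool 2 or 4, without ZT0 dark pool 1 or 3 and without early-night light pool 1. TXN also lost its call under quantile normalization, under scaling, with the array series as a block, with all 4 ZT14 dark pools as controls and without several other single pools.

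The genes whose 16 values were most like those of MACIR followed chiefly its high ratios in ZT14 darkness. Correlation with MACIR was 0.81 for UBQLN1, which escorts ubiquitinated proteins to the proteasome, and 0.80 for RGS5, a regulator of G protein signalling in pericytes. It was 0.76 for each of ARRDC3, an arrestin-domain protein, SPTSSB, a subunit of serine palmitoyltransferase, and CHD4, a chromatin remodeller. Light effects at ZT0 were small in them, from -0.21 for SPTSSB to 0.26 for ARRDC3, whereas all 5 had negative effects of early-night light, from -0.93 for RGS5 to -0.29 for UBQLN1. The most opposed genes were TBL3 at -0.85, which takes part in making ribosomal RNA, the crystallin CRYBA2 at -0.82, the galactosyltransferase B4GALT4 and the laminin chain LAMB1 at -0.79 each, and THAP4 at -0.78.

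The genes most like LONRF1 were chosen by the same measure. Correlation with LONRF1 was 0.84 for HSPA4L, a chaperone of the HSP110 family, and 0.75 for each of the RNA-binding protein FXR1, the splicing factor SLU7 and the nuclear import receptor KPNA4. SEPTIN11, a cytoskeletal GTPase, had 0.74. HSPA4L had 0.25 after late-night light, -0.81 after early-night light and -0.12 under a long day, and KPNA4 had 0.31, -0.58 and -0.04. The most opposed were BDNF at -0.85, the retinoid transporter ABCA4 at -0.83, HEG1 and the dipeptidase DPEP1 at -0.82 each, and the transcription factor HES4 at -0.75. None of the 20 genes was on both lists. These correlations were taken as the extremes of 6640 genes and share the group structure of the arrays, so they describe likeness and nothing more.

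**Figure D5:**
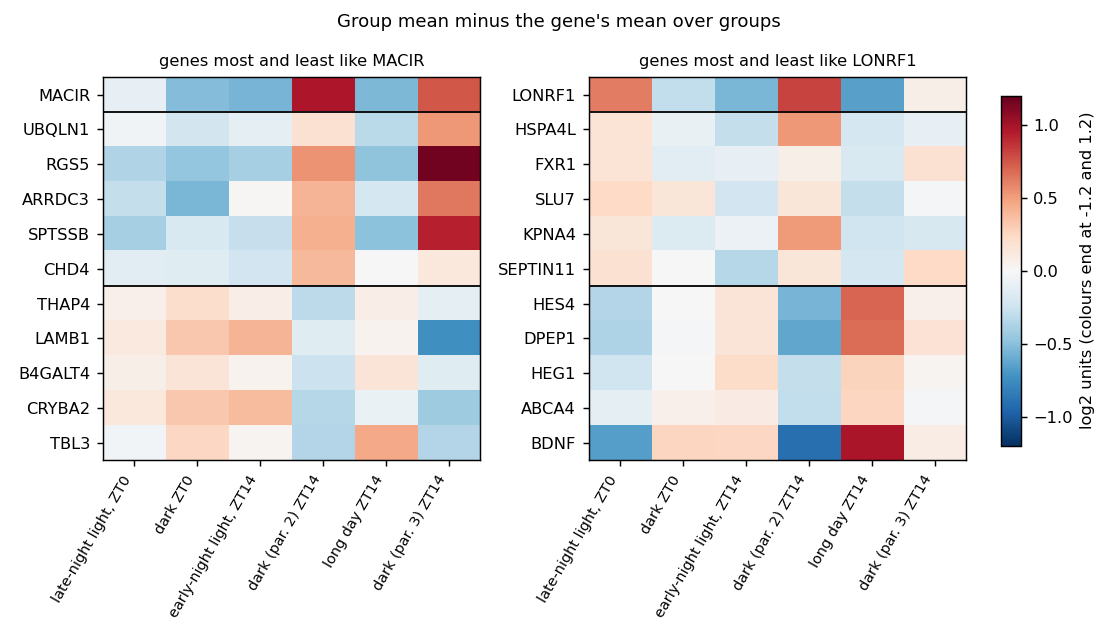
Group mean minus the gene's mean over the 6 groups (colour, log2 units, limits at -1.2 and 1.2) for MACIR (left) and LONRF1 (right), followed by the 5 most similar and the 5 most opposed genes over 16 arrays. Genes like MACIR are above their own mean in both ZT14 dark groups, and genes like LONRF1 are above theirs after late-night light and in the ZT14 dark group of paradigm 2.

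Genes of the pathways in which MACIR and LONRF1 act were examined in lists. Of 28 listed carriers of lipid-modified proteins and their partners, 6 were tested, and limma called 0 of them after late-night light, 0 after early-night light and 0 under the long day, where it called 0%, 0.00798% and 2.94% of all genes. At an unadjusted p under 0.05, limma had 527, 526 and 2232 genes. UNC119B, a partner that MACIR binds in human, had 0.23 ± 0.19, 0.10 ± 0.27 and 0.20 ± 0.27 in these comparisons. Of 26 tested inflammatory response genes, 0 were called in any of them, with medians of 0.02, 0.08 and -0.06.

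The other LON domain proteins tested were the mitochondrial protease LONP1 and the peroxisomal protease LONP2. LONP1 had -0.08 ± 0.27 after late-night light, 0.00 ± 0.38 after early-night light and -0.10 ± 0.38 under a long day, and LONP2 had 0.06 ± 0.24, 0.29 ± 0.33 and 0.32 ± 0.33. Of 34 tested ubiquitin ligases and partners of protein quality control, 16 were positive after late-night light and 16 after early-night light, and 0 were called. In the long day limma called 3 of them, or 8.82%, beside 2.94% of all genes. The conjugating enzymes UBE2K at 2.24 ± 0.35 (adjusted p = 0.00550) and UBE2R2 at 2.16 ± 0.51 (adjusted p = 0.0400) were higher, and the ligase RNF5 was lower at -3.71 ± 0.88 (adjusted p = 0.0408). RNF5 was -1.55 without dark pool 4 and -5.87 without dark pool 3, and UBE2R2 was 1.40 without dark pool 3.

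Heat shock and other chaperone genes, the list of HSPA4L, had 22 of 28 tested members positive after late-night light. Their median was 0.14 against 0.00 over all genes. After early-night light 12 were positive, with a median of -0.03. Limma called 0 in either. The mean over the list was 0.20 to 0.34 in the late-night light pools, against 0.02 to 0.13 in ZT0 dark pools. Single genes had no overlap between these groups in 4.59% of all tested. At ZT14 in paradigm 2 the list mean was also higher in light pools, at 0.197 to 0.219, against 0.186 in both dark pools. In the long day it was -0.33 to -0.18, against -0.09 to -0.03 in dark pools. There 10 of 28 members were positive, with a median of -0.12. Single genes had no overlap in 35.2% and 35.8% of all tested in these 2 comparisons. HSPA4L, named for its likeness to LONRF1, is among the 28. DNAJB6 was the 1 member called in the long day (3.57%, near the 2.94% of all genes), at -1.66 ± 0.39 (adjusted p = 0.0392), and it was -0.83 without dark pool 4.

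In the remaining lists, early-night light had 1 call, TXN (adjusted p = 0.0138), or 5.26% of 19 activity-induced genes, beside 0.00798% of all genes. No other gene of the 12532 tested was called. The activity-induced list was written with earlier results of these arrays known. Its shares here and in the long day are therefore not separate evidence. The long day had several calls in these lists. They were 15.8% of the 19 activity-induced, 9.09% of the 11 clock and 11.1% of the 9 pineal genes, beside 2.94% of all genes. The clock and pineal shares are 1 gene each, and a single call in so small a list exceeds the share of all genes. Among light- and activity-induced genes, TXN was higher by 1.61 ± 0.25 (adjusted p = 0.00550), BDNF by 0.89 ± 0.21 and the kinase SIK1 by 0.82 ± 0.20. CSNK1D, a kinase of PER proteins, was lower at -1.65 ± 0.36, and the transcription factor NEUROD1 at -1.67 ± 0.41, which was -0.94 without dark pool 4. Of the 11 clock genes 8 were negative, whereas of the 9 pineal genes 7 were positive, with a median of 0.11. Each of the 14 long-day calls over all lists was lost under array weights, quantile normalization and scaling, and in a fit of the compared arrays alone. TXN lost its early-night call in such a fit, with the robust prior and without early-night light pool 1.

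For ZT0 against ZT14 in the dark, limma called 2385 genes, or 19% of those tested, beside 10 of 34 quality control genes, 6 of 28 chaperones, 6 of 26 inflammatory genes, 4 of 11 clock genes and 1 of 6 carrier genes. Higher at ZT0 were UBE2R2 by 2.07 ± 0.36, UBE2K by 1.38 ± 0.25, the co-chaperones DNAJA2 by 1.99 ± 0.40 and FKBP5 by 1.23 ± 0.39, the kinase IRAK2 by 1.45 ± 0.18, the RNA sensor TLR7 by 0.69 ± 0.20 and the ciliary protein RPGR by 0.66 ± 0.16. Lower at ZT0, as MACIR was, were SEL1L, of endoplasmic reticulum-associated degradation, at -0.94 ± 0.30, the conjugating enzyme UBE2G2 at -0.85 ± 0.17, the co-chaperones CHORDC1 at -1.16 ± 0.25 and DNAJB4 at -1.15 ± 0.20, the NF-kappaB pathway kinase IKBKB at -0.77 ± 0.16 and the chemokine CCL5 at -0.72 ± 0.18. Against paradigm 2 dark pools alone the values of these genes were smaller in size, at 0.58 for UBE2R2, 0.07 for UBE2K, 0.18 for FKBP5, 0.49 for IRAK2, -0.21 for SEL1L, -0.02 for IKBKB and 0.0133 for UBE2G2, while DNAJA2 was at 1.88. Single pools moved SEL1L to -0.46 without paradigm 3 dark pool 4 and FKBP5 to 0.74 without pool 3.

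Of 11 tested clock genes, 9 were negative for ZT0 minus ZT14 in the dark, as MACIR and LONRF1 were, with a median of -0.34 against -0.03 over all genes. In the dark at ZT0, CRY1, a repressor of the clock, was lower at -2.42 ± 0.69 (adjusted p = 0.0269) and PER3 at -1.16 ± 0.27 (adjusted p = 0.00997), while the kinase CSNK1E was higher by 1.42 ± 0.27. BHLHE40, another repressor, had -0.10 ± 0.18, and TPH1, the first enzyme of melatonin synthesis, was lower at -0.51 ± 0.16 (adjusted p = 0.0463). CRY1 had 0.77 ± 0.69 after late-night light and -0.76 ± 0.97 after early-night light, neither of which passed. PER3 had -0.28 ± 0.27 and 0.14 ± 0.38. The 26 calls between dark times that are named in this report were all lost against the paradigm 2 dark pools alone, where limma called 4 genes. The other called list members were not followed. PER3 was at 0.05 after quantile normalization.

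Marker lists of other cell types also differed in sign or level between late-night light and dark pools at ZT0. Macrophage and microglia markers were negative in 13 of 13, with list means of -0.37 to 0.03 in light pools, against -0.04 to 0.34 in dark pools. Lymphoid markers were negative in 12 of 16, with list means of -0.17 to -0.04 in light pools and -0.03 to 0.57 in dark pools. These nearly met, at -0.0411 and -0.0311, and single genes had no overlap between these groups in 4.59% of all tested. Choroid plexus and ependyma markers were positive in 8 of 8, with list means of -0.08 to 0.31 in light pools and -0.38 to -0.07 in dark pools. OTX2, which is also on the pineal list, is among these 8. Median differences were -0.14 for macrophage, -0.18 for lymphoid and 0.21 for choroid plexus markers, against -0.004 over all genes. Of the erythroid, glial, and endothelial and pericyte markers, 2 of 5, 4 of 7 and 3 of 10 were positive. At ZT14 in paradigm 2 the macrophage list mean was 0.04 to 0.11 in light pools and 0.02 to 0.10 in dark pools. The lymphoid mean was 0.19 to 0.28 in light pools and 0.24 to 0.33 in dark pools, and the choroid plexus mean was -0.19 to 0.27 in light pools and -0.31 to -0.03 in dark pools. Limma called 0 of these markers for either light, and their part in the values of MACIR and LONRF1 was not tested.

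In the long day 5 markers were called in these lists. They were 7.69% of 13 macrophage (1 gene), 30% of 10 endothelial and pericyte and 12.5% of 8 choroid plexus markers (1 gene). Of all genes 2.94% were called. A single call in so small a list puts its share above that of all genes. No lymphoid, erythroid or glial marker was called. Each of these calls was lost under array weights, quantile normalization and scaling, and in a fit of the compared arrays alone. TIMD4 of macrophages was higher by 3.54 ± 0.47, the endothelial receptors KDR by 2.36 ± 0.53 (1.17 without dark pool 3) and PROCR by 1.59 ± 0.22, and the pericyte gene RGS5 was lower at -1.64 ± 0.34, as was CCDC113 of ciliated cells at -2.22 ± 0.25. The means were 0.02 to 0.24 in long-day pools against -0.10 to -0.05 in dark pools for macrophages, where 5 of 13 members were positive. For endothelium and pericytes they were 0.09 to 0.18 in long-day pools against -0.04 to -0.02 in dark pools. There 5 of 10 members were positive, and the median difference was -0.09. Choroid plexus and ependyma markers had 4 of 8 positive and a median of 0.06. Their means were -0.21 to 0.02 in long-day pools against -0.003 to 0.21 in dark pools. Of 16 lymphoid, 5 erythroid and 7 glial markers, 9, 2 and 6 were positive, with medians of 0.03, -0.06 and 0.45. Between dark times 0 of 13 macrophage and 0 of 16 lymphoid markers were called, beside 19% of all genes. Calls made up 20% of 5 erythroid, 14.3% of 7 glial, 10% of 10 endothelial and pericyte and 25% of 8 choroid plexus markers. In these 4 lists 3, 4, 6 and 3 members were positive. The erythroid TFRC was lower at ZT0, at -0.84 ± 0.27, and the glial SOX9 higher by 1.12 ± 0.21. AQP1 of choroid plexus was higher by 0.87 ± 0.26, while RGS5 was lower at -1.31 ± 0.24 and CCDC113 at -1.35 ± 0.17. Of 19 activity-induced and 9 pineal genes, 21.1% and 22.2% were called, near the share of all genes, and 9 and 6 were positive. Among them CCN2 was higher at ZT0 by 1.16 ± 0.34, BDNF by 0.67 ± 0.15 and GCH1, of cofactor synthesis, by 0.87 ± 0.24. INHBA was lower at -0.66 ± 0.12. Against paradigm 2 dark pools alone AQP1 was at 0.03, CCN2 at 0.04, CCDC113 at -0.37 and INHBA at -0.12, and CCN2 was at 0.75 without paradigm 3 dark pool 3.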

How the data were processed

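Per the labels' protocols, RNA of each pool was amplified and labelled for the Cy3 channel, and the reference was amplified alike and labelled for Cy5, on all 16 arrays. The authors deposited log ratios per probe, taken here as log2. Log base, numerator, background correction and normalization: not given in the sources used here. Of 15769 probes, 160 control spots were left out, and the platform annotation gave 1 symbol for 9628, none for 5981 and several for 0. A gene was the mean of its probes and needed 2 values in every group, which left 12532. Limma 3.58.1 (R 4.3.3) fitted 6 group means to all arrays (10 residual and 3.33 prior degrees of freedom), with a call at an adjusted p (Benjamini-Hochberg) under 0.05. Errors are standard errors of this fit unless named as SD. Replicates are pools of different glands, and precision is limited by how few arrays there are. Errors and p-values rest on 1 spread for each gene, shared by all 6 groups, and not on the compared pools alone. Since paradigm 3 arrays were the widest, errors and p-values of the long day can be too small. The fit was tested on simulated data.

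MACIR, LONRF1 and all lists were chosen with earlier results of these data known. TXN and BDNF were named because those results showed them to differ between late-night and early-night light. Named are the 5 most and 5 least correlated genes of each, TXN and BDNF, PER3, CRY1, BHLHE40 and TPH1, LON domain proteins and UNC119B, called list members in light comparisons (at most 4 a list), and between dark times the 2 largest called members of a list in each direction. Alternatives were array weights, another prior, quantile normalization, scaling, fewer arrays, blocks, 1 probe for each gene, a stricter filter, other dark controls and each pool left out. Light and dark pools share pool numbers in paradigms 1 and 2, but pools of 1 number correlated in their deviations at only 0.00182 to 0.317, so the numbers were not taken to pair samples.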

Additional observations from a re-analysis of the deposited data

Results flagged for a closer look

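Several of the 62 named genes were flagged because late-night and early-night light pools lay on opposite sides of all their dark pools. A difference of light effects that passed limma was flagged as well. NDUFB2, C0004119_I2 and DT40subNB_9B10 had been named for opposite light effects. KPNA4, LAMB1, DPEP1, HEG1 and BDNF had been named for extreme correlation with MACIR or LONRF1. BDNF and TXN had also been named because earlier results showed them to differ between late-night and early-night light. The flags of all these genes were at least partly set by those choices and are not separate evidence. The share of all genes with such a flag was not counted. The late-night minus early-night difference was 1.96 for MACIR and 2.27 for LONRF1, and it was 0.89 for KPNA4 and 0.61 for CCN2. It was -0.75 for LAMB1, -1.14 for DPEP1, -0.75 for HEG1, -1.98 for NDUFB2 and -2.47 for the unnamed probe C0004119_I2. For MACIR and LONRF1, chosen by this difference, no test of it is given, and for the other 7 it did not pass limma. It passed for BDNF at -2.06, TXN at -2.13, whose light and dark pools overlapped at ZT0, and the unnamed probe DT40subNB_9B10 at 2.13.

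In 9 of 124 groups of 4 pools, over 62 named genes, 1 pool stood far from the other 3; chance gives about 1 in 20. MACIR and LONRF1 were not among them. Late-night light pool 4 had -1.81 for CRY1, against -0.27 to -0.13 in the others, -0.10 for CHORDC1 against 0.54 to 0.63 and 0.70 for RNF5 against 0.20 to 0.28. Late-night light pool 1 had 0.73 for SPTSSB, against 0.34 to 0.39, and pool 2 had 0.40 for KDR, against -0.14 to -0.07. ZT0 dark pool 4 had 1.61 for UBE2R2, against -0.01 to 0.25, and 2.08 for DNAJA2, against 0.33 to 0.52. ZT0 dark pool 3 had 0.52 for TIMD4, against 0.21 to 0.25, and pool 2 had -0.22 for HEG1, against -0.36 to -0.34.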

How the results depend on the processing

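MACIR and LONRF1 kept the sign of each light effect and of the contrast of light effects under every alternative run, pools left out included. In groups of 2 pools, sizes moved with single pools. Quantile normalization gave MACIR -0.62 for the long day, -0.81 for ZT0 minus ZT14 in the dark, -0.99 for the mean light effect at ZT14, 0.70 for ZT0 minus ZT14 light and -0.87 for paradigm 3 minus paradigm 2 dark. For LONRF1 it gave 1.33 for late-night light, -1.87 for early-night light, -0.41 for the long day, 3.21 for the contrast of light effects and 1.79 for ZT0 minus ZT14 light. Scaling gave MACIR -0.61 for the long day, -1.04 between dark times, 2.22 for the contrast of light effects, -1.18 for the mean ZT14 light effect and -1.24 between the dark groups, and LONRF1 -0.42 for the long day and 2.69 for the contrast of light effects. All 4 ZT14 dark pools as controls gave LONRF1 -0.99 for early-night light, -1.09 for the long day and 1.90 for the contrast. Paradigm 2 or paradigm 3 dark pools alone gave -1.10 or -0.36 between dark times. Without 1 pool, the long-day difference ran from -1.68 to -0.89 for MACIR and from -1.23 to -0.21 for LONRF1, that between dark times from -1.58 to -1.18 and from -0.99 to -0.48, the mean ZT14 light effect from -1.61 to -1.21 and from -1.29 to -0.78, and that between the dark groups from -0.62 to 0.17 and from -1.25 to -0.23, all extremes without paradigm 3 dark pool 3 or 4. The value of 0.17 reversed MACIR and was without pool 4.

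Counts of called genes moved more. Array weights gave 2 for late-night light, 5 for early-night light, 0 for the long day and 1532 between dark times; quantile normalization gave 3, 10, 0 and 888. Scaling gave 0 for the long day, 6 after early-night light and 1071 between dark times. A robust prior with trend gave 0 for early-night light and 0 for the contrast of light effects, and the compared arrays alone gave 0 for the long day and 0 after early-night light. All 4 ZT14 dark pools gave 392 for early-night light and 26 for the contrast. The series block gave 1185 between dark times and 2 for the contrast. Paradigm 2 dark pools alone gave 4 between dark times and paradigm 3 alone 4265. Without 1 pool the counts ran from 0 to 2 for late-night light, 1 to 65 for early-night light, 238 to 1196 for the long day, 1448 to 3211 between dark times and 0 to 45 for the contrast. The 65 and the 45 were without paradigm 2 dark pool 1, and the 1196 and 3211 without paradigm 3 dark pool 4. Between dark times, UBE2G2 was at 0.0133 and CSNK1E at -0.0194 against paradigm 2 dark pools alone, and PER3 at 0.0523 after quantile normalization. The cause was not tested.

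With the pool number of paradigms 1 and 2 as a replicate block, early-night light had 0 calls and the contrast of light effects 0, so that TXN and BDNF lost those calls, and the values of MACIR and LONRF1 were the same. Pool numbers are a label only, and paradigm 3 light and dark pools share none.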
